A study of Mus musculus with 2 samples.

Results

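Cycling macrophages were taken here as the 200 cells with the most RNA of 7 cell division genes among 7936 cells that carried the macrophage growth factor receptor gene Csf1r, 2.52% of those cells. Of the 200, 87 came from tumours of young mice aged 4 weeks and 113 from tumours of adult mice aged 24 weeks. Both samples are labelled d7, and both consist of cells sorted as positive for mCherry, a red fluorescent protein. Tumours of the same age were pooled and gave 1 library, with the 10x Genomics 3' v2 kit, in which every captured RNA molecule receives a barcode of its own, a unique molecular identifier (UMI). The labels give no tumour line, mouse strain or agent, and do not say which cells carried the mCherry gene. A base cell had at least 200 genes, at most 10% of its UMIs from mitochondrial genes, fewer than 2 UMIs of the mCherry construct and at least 2 UMIs of Csf1r. Its score was the mean, over Birc5, Ccnb2, Cdca3, Pclaf, Tyms, Mki67 and Top2a, of the natural log of 1 plus the UMIs per 10000. Members were selected on these measured values as the 200 highest scores over both libraries together, and the other 7736 base cells, 4286 young and 3450 adult, are the others.

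Macrophages in tissue come either from monocytes that leave the blood and mature, or from resident cells that keep their number by dividing in place, and signalling through the receptor encoded by Csf1r is a main stimulus for that division. A dividing cell copies its DNA in S phase, under genes switched on largely by E2F factors, and then separates its chromosomes in mitosis, under genes of the G2/M phase that are held down in resting cells by the DREAM complex. Cx3cr1, the fractalkine receptor, and Fcrls, an Fc receptor-like scavenger protein, are known as marker genes of brain microglia, and Acp5 encodes the tartrate-resistant acid phosphatase of osteoclasts and some tissue macrophages.

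The 2 waves of cell cycle genes often carry different letters in their promoters, and 2 promoters with such letters are shown for each wave. They are from RefSeq on build GRCm38.p6, each with the 250 bases before and the 50 bases after the start of the gene. For the G2/M wave, Ccnb2 encodes a mitotic cyclin (chr9:70421505-70421804, minus strand) and Ube2c the ubiquitin-conjugating enzyme of the anaphase promoting complex (chr2:164769679-164769978, plus strand). In these 2 sequences the capitals mark the CHR element TTTGAA and the CCAAT box, each on either strand, so TTCAAA and ATTGG are the same elements read from the other strand.
Ccnb2: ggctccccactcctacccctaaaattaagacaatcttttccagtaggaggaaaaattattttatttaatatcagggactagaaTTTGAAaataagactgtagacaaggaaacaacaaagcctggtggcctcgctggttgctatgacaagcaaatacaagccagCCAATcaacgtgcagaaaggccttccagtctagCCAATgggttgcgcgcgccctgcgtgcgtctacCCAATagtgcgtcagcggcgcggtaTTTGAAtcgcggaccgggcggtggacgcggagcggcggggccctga
Ube2c: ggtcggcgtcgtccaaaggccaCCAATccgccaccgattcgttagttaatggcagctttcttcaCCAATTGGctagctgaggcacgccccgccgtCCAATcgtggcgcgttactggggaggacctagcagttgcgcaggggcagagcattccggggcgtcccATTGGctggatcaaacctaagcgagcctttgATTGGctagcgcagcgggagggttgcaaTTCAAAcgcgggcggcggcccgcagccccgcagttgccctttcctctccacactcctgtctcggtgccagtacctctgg
For the S phase wave, Mcm5 (chr8:75109259-75109558, plus strand) and Mcm6 (chr1:128359656-128359955, minus strand) encode subunits of the helicase that opens DNA for copying. In the next 2 sequences the capitals mark the E2F letters TTGGCGC on either strand, and CCAAT is left in lower case.
Mcm5: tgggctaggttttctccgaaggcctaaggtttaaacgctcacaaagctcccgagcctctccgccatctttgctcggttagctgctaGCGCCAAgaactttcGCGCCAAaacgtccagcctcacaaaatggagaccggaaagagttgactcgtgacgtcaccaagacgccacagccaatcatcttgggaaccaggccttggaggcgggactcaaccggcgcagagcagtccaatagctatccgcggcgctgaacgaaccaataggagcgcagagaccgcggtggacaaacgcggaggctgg
Mcm6: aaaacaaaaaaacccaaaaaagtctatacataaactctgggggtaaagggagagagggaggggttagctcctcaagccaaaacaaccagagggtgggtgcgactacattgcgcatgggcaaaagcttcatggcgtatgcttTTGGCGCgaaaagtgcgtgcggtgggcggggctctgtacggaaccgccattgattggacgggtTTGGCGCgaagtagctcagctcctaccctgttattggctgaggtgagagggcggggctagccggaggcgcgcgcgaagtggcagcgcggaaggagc
Ccnb2 held 2 CHR elements and 3 CCAAT boxes, Ube2c 1 and 6, and Mcm5 and Mcm6 held 2 E2F matches each. Over the 31 promoters found for 30 of 34 listed G2/M genes, 77.4% held TTTGAA and 12.9% held an E2F match (TTGGCGC or TTCCCGC). Over the 27 promoters found for 22 of 28 listed S phase genes, 11.1% held TTTGAA and 55.6% an E2F match. Among all 32851 promoters of the table the shares were 17.9% and 6.81%. CCAAT was in 74.2% of the G2/M, 63.0% of the S phase and 37.4% of all promoters; its reverse, ATTGG, can share bases with TTGGCGC. Of the 7 genes of the score, 4 promoters held TTTGAA and 2 an E2F match. The promoters of Tk1, Rrm2 and Tyms, not shown, held no E2F match, and that of Birc5 held neither TTTGAA nor CCAAT. A match is a run of letters and not a measured binding site.

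The young library held 7558 barcodes with 84862471 UMIs and the adult library 6279 barcodes with 70988070 UMIs, and 111 barcodes occurred in both, 1 of them a member. The limits on genes and mitochondrial UMIs left 7090 young and 5774 adult cells, and 61.7% of these were base cells. Members had more RNA than others: medians of 17908 UMIs and 3636 genes in young members and 17282 UMIs and 3560 genes in adult members, against 10974 UMIs and 2682 genes in young others and 10673 UMIs and 2554 genes in adult others. The median mitochondrial share was 2.31% in young and 2.23% in adult members, against 1.56% in young and 1.79% in adult others. The levels given are UMIs of a gene per 1000000 UMIs (CPM) after adding up the cells of a set, which came to 1563365 UMIs of young members, 2019788 of adult members, 50064621 of young others and 39591661 of adult others. With 1 library per age no test over samples exists. Intervals are at 95% and reflect the counting of UMIs or cells alone. Age cannot be told apart from the tumour pool, its sort, its library or its sequencing run. No doublets were removed, and a droplet that held a macrophage and another dividing cell could be among the members; their part in the results was not tested.

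The members carried macrophage RNA, as the base asked for Csf1r alone. C1qa, a chain of the complement protein C1q made by macrophages, was read in 78 of 87 young and 99 of 113 adult members, against 3064 of 4286 young and 2231 of 3450 adult others. Its level was 2918 CPM in young members and 3195 CPM in adult members, against 1558 CPM in young others and 1428 CPM in adult others. C1qa was also read in cells with no Csf1r and at least 2 Csf3r UMIs, taken as neutrophils. There it was in 23 of 50 young and 12 of 52 adult cells, at 1406 and 261 CPM. In cells with at least 10 mCherry UMIs it was in 258 of 423 young and 258 of 476 adult cells. A C1qa UMI alone therefore does not mark a cell as a macrophage. Adgre1, which encodes F4/80, stood at 104 CPM in young members and 132 CPM in adult members, against 107 CPM in young others and 87.2 CPM in adult others. The 18 listed macrophage identity genes had median log2 ratios of members over others of -0.36 in the young and -0.17 in the adult library. Of these, 1 was lower by a factor of 2 or more in members of both libraries and none was higher by as much. That gene was Cd14, a co-receptor for bacterial lipopolysaccharide, with 609.6 CPM in young members and 489 CPM in adult members, against 1288 CPM in young others and 1066 CPM in adult others. Csf1r itself, part of the choice, was at 402 CPM in young members and 371 CPM in adult members, against 409.7 CPM in young others and 407 CPM in adult others. The mCherry construct, also part of the choice, was at 11.5 and 14.9 CPM in young and adult members, against 13.5 and 13.9 CPM in young and adult others.

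Some members held RNA of other cells. At least 5 UMIs of 11 T and NK cell genes were found in 1 young and 2 adult members, against 16 young and 10 adult others. As shares, that is 1.15% of young and 1.77% of adult members, against 0.373% of young and 0.290% of adult others. At least 5 UMIs of the neutrophil genes were found in 1 young and 5 adult members, against 197 young and 109 adult others. As shares, that is 1.15% of young and 4.42% of adult members, against 4.60% of young and 3.16% of adult others. At least 50 UMIs of osteoclast-type genes were found in 0 young and 3 adult members (2.65%), against 0 young and 3 adult others (0.087%). The exact binomial interval of 0 in 87 cells reaches 4.15%. The T and NK cell genes summed to 97.2 CPM in young members and 69.8 CPM in adult members, against 23.4 CPM in young others and 12.9 CPM in adult others. Of these, 146 of 152 UMIs in young members and 104 of 141 UMIs in adult members lay in 1 cell each, and without the richest cell of each sum 3.84 CPM was left in young members and 18.3 CPM in adult members, against 21.3 CPM in young others and 10.4 CPM in adult others. The neutrophil genes summed to 37.7 CPM in young members and 136 CPM in adult members, against 135 CPM in young others and 129 CPM in adult others. Together 2 young members (2.30%) and 10 adult members (8.85%) passed one of these 3 limits, against 211 young others (4.92%) and 122 adult others (3.54%). The summed dendritic cell genes were at 42.2 CPM in young members and 43.6 CPM in adult members, against 28.7 CPM in young others and 30.4 CPM in adult others. The myeloid progenitor genes were at 11.5 CPM in young members and 9.90 CPM in adult members, against 7.59 CPM in young others and 9.88 CPM in adult others, and the tumour and stromal genes at 5.76 CPM in young members and 12.9 CPM in adult members, against 16.2 CPM in young others and 11.4 CPM in adult others. No member held a UMI of the 6 erythroid genes. The B cell genes were at 12.2 CPM in young members and 10.4 CPM in adult members, against 5.07 CPM in young others and 4.09 CPM in adult others, and the endothelial genes at 32.0 CPM in young members and 21.3 CPM in adult members, against 41.4 CPM in young others and 33.0 CPM in adult others.

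The score had no gap at the limit. It ran from 1.497 at the first cell to 0.445 at rank 100, 0.210 at rank 200 and 0.124 at rank 400. The last 10 cells inside scored from 0.218 down to 0.210 and the first 10 outside from 0.208 down to 0.198, and 42 members and 72 others lay within 0.05 of the limit. Of all base cells 6596 (83.1%) scored 0, while 1140 others held at least 1 UMI of a score gene. Among young members 16 had all 7 genes and 10 had 1 gene, and among adult members 11 had all 7 and 6 had 1. Members with 1 or 2 of the genes were shallow, with medians of 5877.5 UMIs in 20 young and 8699 UMIs in 24 adult cells, and members with 5 to 7 genes were deep, with medians of 23826.5 UMIs in 34 young and 20742 UMIs in 43 adult cells. A member is therefore a cell at the top of a continuous range, and the shallow ones can rest on a single UMI.

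**Figure D1:**
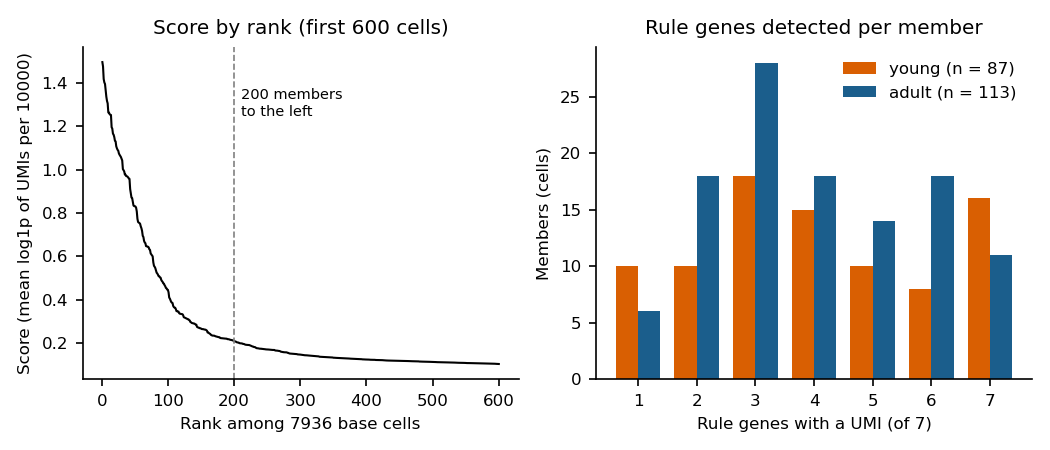
Left, score (mean log1p of UMIs per 10000) against rank for the first 600 of 7936 base cells, with a dashed line at the last of the 200 members; right, number of members by how many of the 7 score genes had a UMI, young beside adult. The curve passes the line at 0.210 without a step, and 16 young and 11 adult members held all 7 genes.

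The genes that made the choice describe its result and test nothing. Birc5, which encodes survivin of the chromosomal passenger complex, was read in 59 young and 80 adult members, against 105 young and 82 adult others. Pclaf, a partner of the replication clamp, was at 260.3 CPM in young members and 204.97 CPM in adult members, against 1.198 CPM in young others and 1.59 CPM in adult others. Mki67, the source of the Ki-67 antigen, was read in 39 young and 56 adult members, against 111 young and 91 adult others. RNA of these genes was rare in cells taken as neutrophils, with no Csf1r and at least 2 Csf3r UMIs: each of the 7 was read in at most 1 of 50 young and at most 2 of 52 adult cells, which had medians of 2915.5 and 2180.5 UMIs. In cells with at least 10 mCherry UMIs, Birc5 was read in 274 of 423 young and 301 of 476 adult cells, at medians of 32751 and 31334.5 UMIs.

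Members were a mixture of cells with more S phase RNA and cells with more mitotic RNA, in both libraries. Neither list used for this split holds a score gene. The 28 S phase genes summed to 1261 CPM in young members and 1250.1 CPM in adult members, against 255 CPM in young others and 235 CPM in adult others. The 34 G2/M genes summed to 1211 CPM in young members and 1375 CPM in adult members, against 134 CPM in young others and 108 CPM in adult others. More S phase than G2/M UMIs were found in 40 of 87 young members, or 46.0% (exact binomial interval 35.2 to 57.0), and in 52 of 113 adult members, or 46.0% (36.6 to 55.6). The reverse held in 42 young and 54 adult members, and 5 and 7 were equal. The shares of the libraries lay well within each other's interval. The same call gave 58.4% in young others and 57.5% in adult others, most of which hold few UMIs of either list, so it does not by itself mark a cell as cycling. Both sums were at least 10 per 10000 UMIs in 12 young and 18 adult members and in 0 others, and both were below 3 per 10000 in 8 young and 20 adult members, against 2710 young and 2451 adult others. In the cells taken as neutrophils the S phase genes summed to 167 CPM in young cells and 121 CPM in adult cells and the G2/M genes to 179 and 46.9 CPM. In the others these sums were 255 and 235 CPM for S phase and 134 and 108 CPM for G2/M. Free RNA may enter the phase split, and its part was not tested.

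**Figure D2:**
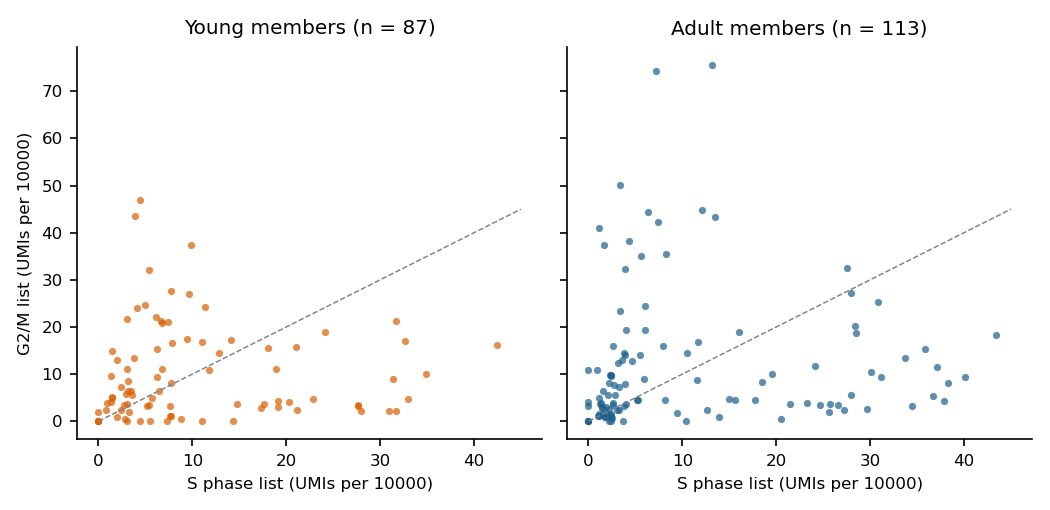
UMIs of the 34 G2/M genes against UMIs of the 28 S phase genes, each per 10000 UMIs of the cell, in 87 young members (left) and 113 adult members (right); the dashed line marks equal values. The line has 40 young and 52 adult cells below it and 42 and 54 above it, and 12 young and 18 adult cells reach 10 on both axes.

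Members with more S phase than G2/M UMIs are called S-rich here and those with the reverse G2/M-rich, also where both sums are low. Outside the score genes, the difference between the sides varied. The listed DNA damage genes summed to 109 and 87.2 CPM in young and adult G2/M-rich members, next to 272 and 273 CPM in young and adult S-rich members. Histone genes and Stmn1 differed less. The 15 listed histone genes summed to 5288 CPM in young G2/M-rich members and 5493 CPM in adult G2/M-rich members, next to 4399 and 4349.5 CPM in young and adult S-rich members. Stmn1, a microtubule gene described below, was at 362 CPM in young G2/M-rich members and 377 CPM in adult G2/M-rich members, next to 449 and 489.8 CPM in young and adult S-rich members. The score genes are given as a description, since a cell poor in one of them could enter only through another. Ccnb2 was at 155 and 214 CPM in young and adult G2/M-rich members, next to 48.8 and 33.7 CPM in young and adult S-rich members. Tyms, thymidylate synthase, was at 42.3 and 51.5 CPM in young and adult G2/M-rich members, next to 80.8 and 104 CPM in young and adult S-rich members. Top2a, the topoisomerase that untangles copied DNA, was at 119 and 97.7 CPM in young and adult G2/M-rich members, next to 106 and 112 CPM in young and adult S-rich members.

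Of 4629 genes with a mean of at least 20 CPM over the 4 sums, 124 (2.68%) were higher in members than in others of both libraries by 2-fold or more and 57 (1.23%) were lower by as much, on the scale of log2(CPM + 5). The choice of cells used this contrast, so the counts describe what came with it. A gene that reached 20 CPM through the members alone had to pass the higher limit, so lists are given below out of all listed genes. Of the 124, 7 were the score genes, 54 were other listed cell cycle genes and 63 stood in no cell cycle list; none of the 209 other listed cell cycle genes was at least 2-fold lower in both. The median log2 ratio over the 4629 genes was 0.03 in the young and 0.10 in the adult library. Listed cell cycle genes took 1.80% of all UMIs in young members and 1.78% in adult members, against 0.862% in young and 0.882% in adult others.

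For the start of DNA copying, 7 of 17 replication licensing genes were higher in both libraries, with median log2 ratios over the list of 1.59 in the young and 1.47 in the adult library. Mcm5 had 100 UMIs in young members and 135 UMIs in adult members, or 64.0 CPM and 66.8 CPM, against 6.85 CPM in young others and 7.17 CPM in adult others, 9.34-fold and 9.32-fold higher. Mcm3, Mcm6 and Mcm7, of the same helicase, were between 5.40-fold and 10.6-fold higher. Gmnn, geminin, which stops DNA from being copied again in the same cycle, was at 98.5 CPM in young members and 84.2 CPM in adult members, against 21.9 CPM in young others and 19.5 CPM in adult others. Cdt1, the loading factor that geminin blocks, was at 35.2 and 31.2 CPM in young and adult members, against 20.99 and 16.5 CPM in young and adult others, and did not pass the limit.

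At the fork itself 8 of 20 genes were higher in both. Pcna, the sliding clamp of the polymerases, was at 128 CPM in young members and 129 CPM in adult members, against 45.3 CPM in young others and 45.1 CPM in adult others. Lig1, the ligase that joins the fragments, was at 143 CPM in young members and 84.7 CPM in adult members, against 42.3 CPM in young others and 24.0 CPM in adult others. Of 16 nucleotide synthesis genes 6 were higher, and those of deoxynucleotide supply stood well above those of purine and pyrimidine building. Tk1, thymidine kinase, was at 64.6 CPM in young members and 86.6 CPM in adult members, against 0.979 CPM in young others and 1.46 CPM in adult others, 66.0-fold (46.5 to 94.9) and 59.1-fold (43.7 to 81.0) higher. Rrm2, the regulated subunit of ribonucleotide reductase, was 22.02-fold and 36.7-fold higher, Dut, which clears dUTP, 10.1-fold and 8.97-fold, and Paics, of purine synthesis, 2.82-fold and 2.21-fold. Atad2, a chromatin ATPase, was the 1 gene of 15 in the DNA damage list that passed, 3.56-fold and 3.61-fold higher.

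Among cyclins and their partners 4 of 16 genes passed, and the cyclins of the S and M phases stood apart from those of G1. Ccna2, cyclin A2, had 97 UMIs in 33 young members and 120 UMIs in 45 adult members, against 20 UMIs in 20 young others and 13 UMIs in 13 adult others. That is 62.0 CPM in young members and 59.4 CPM in adult members, against 0.399 CPM in young others and 0.328 CPM in adult others, 155-fold (95.3 to 265) and 181-fold (102 to 349.7) higher. Ccnb1, cyclin B1, was 54.6-fold and 56.9-fold higher and Cdk1, the mitotic kinase, 22.5-fold and 36.6-fold. Cks1b, a small subunit of those kinases, was at 178 CPM in young members and 212 CPM in adult members, against 13.9 CPM in young others and 17.7 CPM in adult others. The D cyclins respond to growth factors. Ccnd1 was higher in members of both libraries, by less than 2-fold. It was at 187 and 159 CPM in young and adult members, against 122 and 102 CPM in young and adult others. Ccnd3 was close to the others, 1.03-fold and 1.05-fold higher. Cdk4, the kinase of the D cyclins, was 1.95-fold and 1.80-fold higher.

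The brakes of the cycle did not move as 1 group, and none of 7 CDK inhibitor genes passed in both libraries. Cdkn1a, which encodes p21, was at 613 CPM in young members and 450.0 CPM in adult members, against 820.2 CPM in young others and 792 CPM in adult others. Cdkn2c, which encodes p18, was at 25.6 CPM in young members and 33.7 CPM in adult members, against 1.12 CPM in young others and 3.46 CPM in adult others, 22.9-fold and 9.73-fold higher, but its mean was under the level limit. Cdkn3, a phosphatase that acts on Cdk1 and Cdk2, was outside that list and was 66.7-fold (44.3 to 102) and 78.4-fold (54.6 to 115) higher. Of 15 genes of the Rb and E2F group 1 passed, Tfdp1, the dimer partner of E2F factors, 2.49-fold and 2.40-fold higher. The mitotic factor genes Foxm1 and Mybl2 had 22 and 23 UMIs in young members and 32 and 40 UMIs in adult members.

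Chromosome and chromatin genes followed. Of 15 chromatin genes 7 were higher, with medians of 1.66 and 1.65. Hmgb2, a DNA-bending protein, was at 619 CPM in young members and 638 CPM in adult members, against 164 CPM in young others and 157 CPM in adult others. Asf1b, a histone chaperone, was 12.7-fold and 20.4-fold higher. Of 15 histone genes 4 passed, among them the variants H2afz, H2afx and H2afv, which are made outside S phase too. H2afz was at 1827 CPM in young members and 2009.6 CPM in adult members, against 564 CPM in young others and 646 CPM in adult others. Most replication-dependent histone RNAs lack a poly(A) tail and are poorly read by this chemistry, and reads of the Hist1 copies may be split, so their levels are uncertain. Smc2 and Smc4, the core of condensin, were 8.80-fold and 6.505-fold higher in the young and 12.4-fold and 7.44-fold higher in the adult library. The cohesin gene Smc3 was 2.13-fold and 1.598-fold higher and did not pass.

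For mitosis, 3 of 19 kinetochore and checkpoint genes, 6 of 21 spindle and cytokinesis genes and 4 of 10 anaphase genes passed, with list medians of 2.22 and 1.81, 2.03 and 2.24, and 0.76 and 0.78. Stmn1, which destabilises microtubules, had the highest weaker-library log2 ratio outside the score genes, although plain folds were higher for Ccna2, Cdkn3, Tk1 and Ube2c. It had 618 UMIs in 68 young and 858 UMIs in 92 adult members, against 365 UMIs in 277 young and 397 UMIs in 256 adult others, or 395 CPM in young members and 425 CPM in adult members against 7.29 CPM in young others and 10.0 CPM in adult others. Stmn1 was read in 0 of 50 young and 2 of 52 adult neutrophil cells. Ube2c was at 169 CPM in young members and 176 CPM in adult members, against 2.60 CPM in young others and 3.33 CPM in adult others, 65.0-fold (52.5 to 80.9) and 52.7-fold (43.1 to 64.9) higher. Its activator partner gene Cdc20 was 46.4-fold and 64.0-fold higher, while Pttg1, securin, was 0.939-fold and 1.11-fold.

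At the kinetochore, Spc24 was 61.0-fold and 41.8-fold higher and Cenpa, the histone of centromeres, was at 188 CPM in young members and 203 CPM in adult members, against 36.4 CPM in young others and 32.3 CPM in adult others. Knstrn, a spindle adaptor, was 28.3-fold and 23.2-fold higher. Cdca8, borealin of the passenger complex, was at 85.1 CPM in young members and 101 CPM in adult members, against 4.87 CPM in young others and 2.78 CPM in adult others. Aurkb, the kinase of that complex, had 46 UMIs in young members and 55 UMIs in adult members, against 70 UMIs in young others and 43 UMIs in adult others. None of the 11 kinesins reached the level limit, yet their list medians were 1.67 and 1.91: Kif11, the motor that pushes spindle poles apart, had 15 UMIs in young members and 32 UMIs in adult members, against 10 UMIs in young others and 13 UMIs in adult others. The count of higher genes ranged over the alternatives from 27 among genes with a mean of at least 100 CPM to 281 with no level limit, and was 50 without the deepest 5% of base cells.

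**Figure D3:**
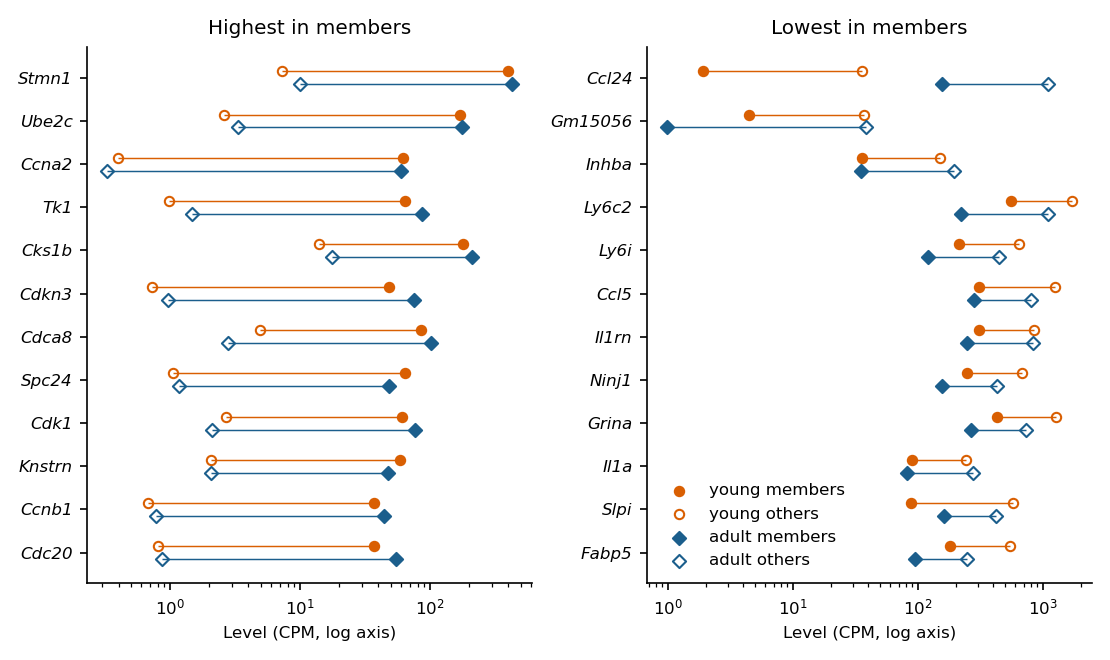
Level (CPM, log axis) of the 12 genes with the highest (left) and the 12 with the lowest (right) weaker-library ratio of members to others, score genes left out, in young members, young others, adult members and adult others. Within each library, filled and open symbols do not cross for any of the 24 genes, which follows from how the genes were picked. Most gaps are wider on the left: Ccna2 was at 62.0 and 59.4 CPM in young and adult members, against 0.399 and 0.328 CPM in young and adult others.

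Some of the 63 higher genes in no cell cycle list are given as examples. Selenoh, a nuclear selenoprotein, was at 191 CPM in young members and 234 CPM in adult members, against 43.0 CPM in young others and 41.3 CPM in adult others. Ran, the GTPase of nuclear transport, was 2.32-fold and 2.08-fold higher. The surface gene Cd81, a tetraspanin, was at 182 CPM in young members and 233 CPM in adult members, against 39.8 CPM in young others and 51.7 CPM in adult others, and was read in 59 young and 82 adult members. Cd72, a receptor known best from B cells, was 2.40-fold and 3.59-fold higher, and Slamf9, of the SLAM receptor family, 2.10-fold and 2.82-fold. Ighm, the heavy chain of IgM, had 57 UMIs in 15 young and 125 UMIs in 38 adult members, against 157 UMIs in 110 young and 339 UMIs in 186 adult others. The chemokine gene Cxcl14 was at 101 CPM in young members and 189 CPM in adult members, against 47.0 CPM in young others and 89.7 CPM in adult others. These 7 genes were picked after their values were seen.

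Among the 57 genes lower in members were 8 of the inflammatory list and 2 of the monocyte list. Of 14 inflammatory genes 8 were lower in both libraries and none higher, with list medians of -1.20 and -1.19, and it was the 1 of 42 lists whose median was lower by 2-fold or more in both. Under 7 of 23 alternatives no list was, for example among the top 400 cells by score or with every cell thinned to 5000 UMIs. Il1b, the secreted interleukin-1 beta, was at 1358 CPM in young members and 1308 CPM in adult members, against 3338 CPM in young others and 3335 CPM in adult others. Il1a, its relative, was at 90.2 CPM in young members and 81.7 CPM in adult members, against 241 CPM in young others and 274 CPM in adult others, and Il1rn, the antagonist of both, 2.77-fold and 3.41-fold lower. Nos2, inducible nitric oxide synthase, was at 145 CPM in young members and 59.9 CPM in adult members, against 339 CPM in young others and 212 CPM in adult others. Tnf and the chemokine genes Ccl3 and Ccl4 were lower by less than 2-fold, Tnf at 0.772-fold and 0.724-fold, Ccl3 at 0.838-fold and 0.811-fold and Ccl4 at 0.891-fold and 0.949-fold.

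Of 12 monocyte genes 2 were lower in both, Ly6c2 and F13a1. Ly6c2, the Ly6C antigen of fresh monocytes, was at 558 CPM in young members and 220.3 CPM in adult members, against 1695 CPM in young others and 1092 CPM in adult others. Its fold was 3.04-fold (2.84 to 3.25) lower in the young and 4.96-fold (4.52 to 5.46) lower in the adult library, and its neighbour gene Ly6i was 3.05-fold and 3.65-fold lower; the Ly6 genes are close copies, so their counts are uncertain. Ccr2, the receptor that draws monocytes out of the marrow, was at 161 CPM in young members and 202 CPM in adult members, against 237 CPM in young others and 342 CPM in adult others. Inhba, a subunit of activin, was at 35.8 CPM in young members and 35.2 CPM in adult members, against 150.5 CPM in young others and 194 CPM in adult others. The chemokine gene Ccl5 was 4.08-fold and 2.82-fold lower. Grina and Ninj1, the second of which encodes ninjurin-1 of plasma membrane rupture, were each between 2.72-fold and 2.97-fold lower in both libraries.

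Arg1, the arginase of alternatively activated macrophages, was at 2291 CPM in young members and 2322 CPM in adult members, against 5413 CPM in young others and 6006 CPM in adult others. Ccl24, the eotaxin-2 chemokine, was at 1.92 CPM in young members and 156 CPM in adult members, against 35.7 CPM in young others and 1088 CPM in adult others. Arg1 and Ccl24 were the 2 of 11 listed alternative activation genes lower in both libraries. Slpi, a protease inhibitor, was 6.602-fold and 2.60-fold lower, with 83 of its 325 adult member UMIs in 1 cell. Fabp5, a fatty acid carrier, was 2.98-fold and 2.57-fold lower, the 1 gene of 13 in the heme and lipid list that passed. Gm15056, a predicted gene, was among the lowest with 7 UMIs in young members and 2 UMIs in adult members and rests on few counts. The count of lower genes is unsteady, 1 of 4629 genes among the top 400 cells by score and 87 among the top 100.

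Other lists stayed near the middle. None of 9 MHC class II genes passed in either direction, with medians of 0.15 and -0.06, and Cd74, the invariant chain, was at 8351 CPM in young members and 9544 CPM in adult members, against 9004 CPM in young others and 11589 CPM in adult others. Oxidative phosphorylation had medians of 0.26 and 0.33 with 0 of 14 genes past the limit, and glycolysis and hypoxia -0.30 and -0.53 with 1 of 14 lower, Vegfa. Of 14 ribosome biogenesis genes 1 was higher, Nop58, with medians of 0.61 and 0.50. Of 15 Myc and self-renewal genes none passed, and Myc had 13 UMIs in young members and 31 UMIs in adult members. Of 16 growth factor receptor and ligand genes 1 passed, Met, the hepatocyte growth factor receptor, which was lower. Cholesterol synthesis genes had medians of 0.64 and 0.36 and the immediate early and heat shock genes -0.19 and -0.07, with 0 of 14 past the limit in each. Of 12 p53 target genes 1 was lower, Gadd45a, and of 9 monocyte chemokine genes 1 was lower, Ccl6.

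**Figure D4:**
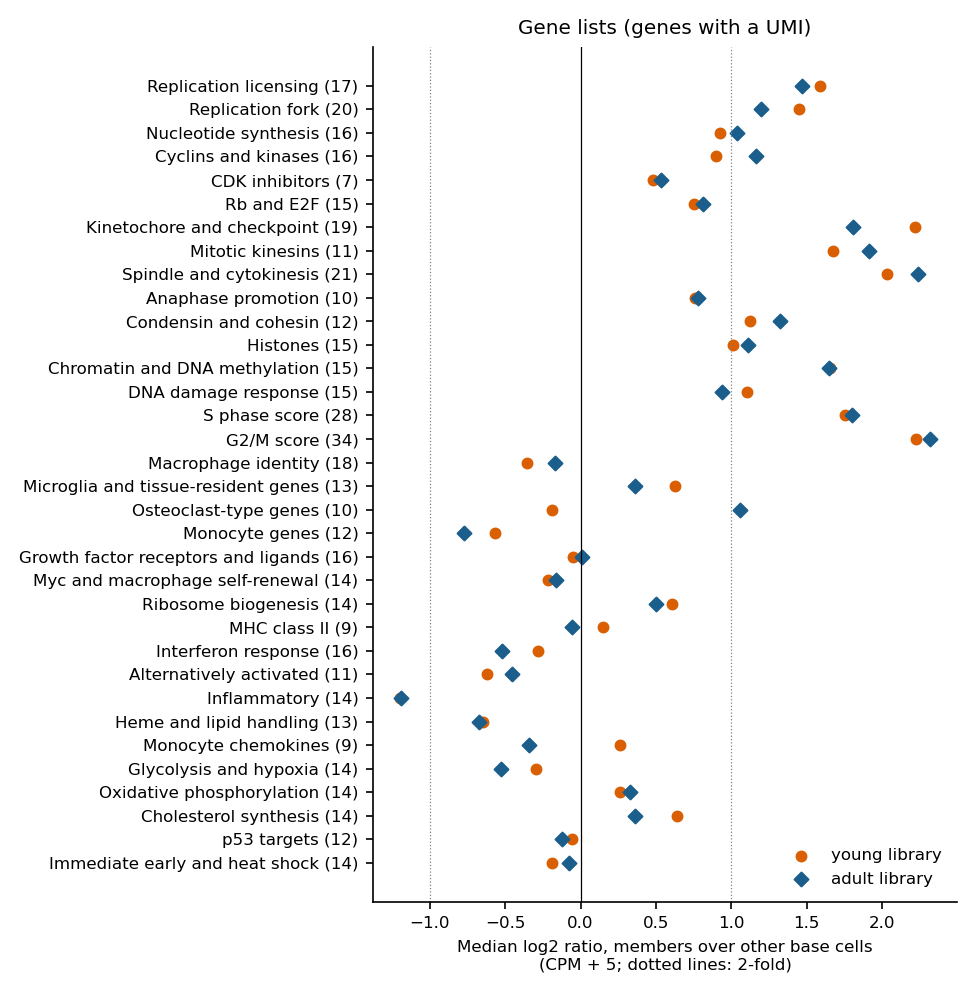
Median log2 ratio of members over others, from CPM + 5, for 34 gene lists in the young library (circles) and the adult library (diamonds); the number of listed genes with a UMI is in brackets and dotted lines mark 2-fold. The 16 cell cycle lists lie right of 0 in both libraries, while the inflammatory list lies at -1.20 and -1.19; the osteoclast-type list differs between the libraries, at -0.19 and 1.06.

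Cx3cr1 and Fcrls were higher in members of both libraries. Cx3cr1, on chromosome 9 (mm10 119901616 to 120069879), had 256 UMIs in 31 of 87 young members and 199 UMIs in 59 of 113 adult members, against 428 UMIs in 234 of 4286 young others and 787 UMIs in 328 of 3450 adult others. That is 164 CPM in young members and 98.5 CPM in adult members, against 8.55 CPM in young others and 19.9 CPM in adult others, 19.2-fold (16.3 to 22.4) and 4.96-fold (4.22 to 5.80) higher. One young member held 149 of the 256 UMIs, and without the top cell of each sum the folds were 8.37-fold and 4.82-fold. That cell had 5 of the 7 score genes, 5 Csf1r and 16 C1qa UMIs and no Cd3e or Nkg7 UMI. Of other macrophage genes it held 62 Lyz2 UMIs, 1 Cd68 UMI and no Adgre1 UMI, out of 21619 UMIs. With every cell thinned to 5000 UMIs, which leaves out 10 young and 6 adult members and 243 young and 204 adult others, Cx3cr1 was read in 23.4% of young and 23.4% of adult members, against 2.75% of young and 5.64% of adult others. In the neutrophil cells, with medians of 2915.5 and 2180.5 UMIs, it was read in 1 of 50 young and 1 of 52 adult cells. The young cell held 1 UMI. The adult cell held 73 UMIs, which put the adult neutrophil sum at 489 CPM.

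Fcrls, on chromosome 3 (mm10 87250758 to 87263738), had 16 UMIs in 8 young members and 178 UMIs in 40 adult members, against 53 UMIs in 25 young others and 372 UMIs in 192 adult others. Its levels were 10.2 CPM in young members and 88.1 CPM in adult members, against 1.06 CPM in young others and 9.40 CPM in adult others. The ratio of members to others was close in both libraries, 9.67-fold (5.16 to 17.2) and 9.38-fold (7.80 to 11.2), at levels 8.61-fold lower in young members than in adult members and 8.88-fold lower in young others than in adult others. Olfml3, a further gene used as a microglia marker, was the third of 16 listed genes that passed, at 43.5 CPM in young members and 44.1 CPM in adult members, against 17.9 CPM in young others and 11.1 CPM in adult others. Tmem119 and Trem2 of the same list did not pass, with 32.6 and 44.6 CPM of Tmem119 in young and adult members, against 66.1 and 39.2 CPM in young and adult others. The whole list had medians of 0.63 and 0.36 over the 13 genes with a UMI.

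Read the other way, cells with these genes held members more often. Of base cells with a Cx3cr1 UMI, 31 of 265 young (11.7%, 8.09 to 16.2) and 59 of 387 adult cells (15.2%, 11.8 to 19.2) were members, against 1.36% of young and 1.70% of adult cells without one. Of cells with an Fcrls UMI, 8 of 33 young (24.2%, 11.1 to 42.3) and 40 of 232 adult cells (17.2%, 12.6 to 22.7) were members, against 1.82% of young and 2.19% of adult cells without one. The excess was not limited to these 2 genes: with and without an Ighm UMI members were 12% and 1.69% of young cells and 17.0% and 2.25% of adult cells, and with and without an Mrc1 UMI 7.01% and 1.58% of young cells and 5.39% and 2.57% of adult cells. Deeper cells show a UMI of any gene more easily. After thinning to 5000 UMIs, members were still 14.0% of young and 12.02% of adult cells with a Cx3cr1 UMI, against 1.48% and 2.61% of those without. By phase, Cx3cr1 was at 89.5 CPM in young G2/M-rich members and 112 CPM in adult G2/M-rich members and at 48.8 and 90.2 CPM in S-rich members, with a UMI in 20 of 42 young and 34 of 54 adult G2/M-rich cells and in 10 of 40 young and 24 of 52 adult S-rich cells. Among members with 5 to 7 score genes, 17 of 34 young and 26 of 43 adult cells had a Cx3cr1 UMI, and among those with 1 or 2 score genes 2 of 20 young and 6 of 24 adult cells did. The latter cells were shallower, and the level did not rise in steps. With 1 or 2, 3 or 4 and 5 to 7 score genes it was 98.0, 65.2 and 128 CPM in adult members. In young members it was 76.0, 48.9 and 259 CPM, the last with the cell richest in Cx3cr1.

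Acp5 was not shared in this way. On chromosome 9 (mm10 22126727 to 22135711), it had 55 UMIs in 26 young members and 632 UMIs in 41 adult members, against 2340 UMIs in 1111 young others and 2873 UMIs in 962 adult others. Its level was 35.2 CPM in young members and 313 CPM in adult members, against 46.7 CPM in young others and 72.6 CPM in adult others, 0.753-fold (0.565 to 0.983) and 4.31-fold (3.95 to 4.70). The 3 richest adult cells held 221, 194 and 95 of the 632 UMIs. The same 3 cells held 413, 87 and 135 UMIs of Ctsk, cathepsin K of osteoclasts, which were all 635 UMIs of that gene in adult members, and 304, 6 and 23 UMIs of Mmp9. They had 15, 6 and 5 UMIs of Csf1r but 2, 0 and 0 of C1qa and 4, 1 and 1 of Lyz2, and their score genes came to 4, 4 and 2 of 7. Without members rich in other marker lists the adult log2 ratio of Acp5 was -0.17, against 2.04 with them. Thinned to 5000 UMIs, Acp5 was read in 20.8% of young and 19.6% of adult members, against 14.1% of young and 15.6% of adult others.

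**Figure D5:**
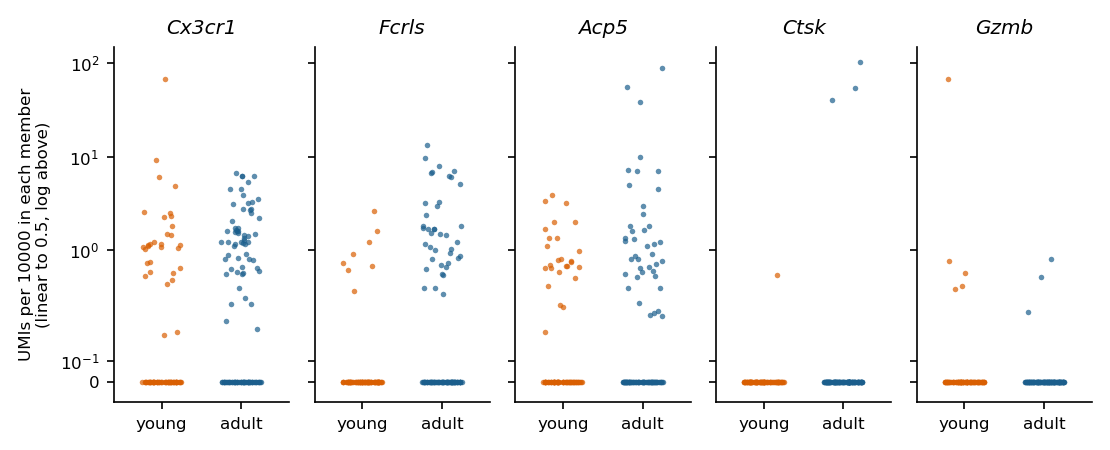
UMIs per 10000 of Cx3cr1, Fcrls, Acp5, Ctsk and Gzmb in each of 87 young and 113 adult members (linear axis to 0.5, logarithmic above). Cx3cr1 and Fcrls are spread over many cells, while 1 young cell carries 125 of 130 Gzmb UMIs and 3 adult cells carry all 635 Ctsk UMIs.

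Members were less frequent in the young library. They were 87 of 4373 young base cells (1.99%, interval 1.596 to 2.45) and 113 of 3563 adult base cells (3.17%, 2.62 to 3.80), a ratio of 0.627 (0.476 to 0.827). Thinned to 5000 UMIs, with 155 cells strictly above the tied score of a single UMI, 67 of 4120 young cells (1.63%, 1.26 to 2.06) and 88 of 3353 adult cells (2.62%, 2.11 to 3.22) lay at the top, a ratio of 0.620 (0.452 to 0.849). The score of the members hardly differed, with medians of 0.410 in young and 0.452 in adult members. Between 1 young and 1 adult library this is a difference of these libraries, and the spread between mice is unknown.

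Of the 87 listed cell cycle genes outside the score that reached the level limit, 0 passed the age limit, a 2-fold difference with an interval without 1. Over all 4629 genes, 46 (0.994%) were higher in young than in adult members and 23 (0.497%) lower, so that 0 of 87 is near the share over all genes. In the others, young against adult, 15 (0.324%) were higher and 21 (0.454%) lower.

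Interferon response genes stood among the first set. Of 16 listed, 8 were higher in young members and 0 lower, with a list median of 0.75, against 0.44 between young and adult others. Rsad2, viperin, was at 173 CPM in young members and 42.6 CPM in adult members, against 284 CPM in young others and 155 CPM in adult others. Ifit3 was at 89.6 CPM in young members and 26.7 CPM in adult members, against 97.3 CPM in young others and 51.8 CPM in adult others, and Cmpk2 at 39.0 and 8.91 CPM in young and adult members, with 28 of its 61 young UMIs in 1 cell. Reads of Ifit3 may be split with its copy Ifit3b. Gbp2b, a guanylate-binding protein, was 5.84-fold (3.61 to 9.87) higher in young members and 7.88-fold higher in young others. Rsad2, Ifit3 and Cmpk2 were likewise higher in young others than in adult others, by 1.83-fold, 1.88-fold and 1.22-fold.

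The monocyte genes Ly6c2 and Plac8 were 2.53-fold (2.26 to 2.84) and 2.74-fold (2.54 to 2.95) higher in young members, while among others they were 1.55-fold and 1.002-fold. Hmox1, heme oxygenase, was at 297 CPM in young members and 102 CPM in adult members, against 595 CPM in young others and 263.5 CPM in adult others. Selenom, a selenoprotein of the endoplasmic reticulum, was 4.61-fold higher in young members and 3.08-fold higher in young others, and Pla2g7, a phospholipase that degrades platelet-activating factor, 3.09-fold and 2.06-fold. Ccl8, a monocyte chemokine, had 301 UMIs in 19 young members and 16 UMIs in 11 adult members, with 79 of the 301 in 1 cell, or 193 CPM in young members and 7.92 CPM in adult members against 93.6 CPM in young others and 119 CPM in adult others. Mt2, a metallothionein, was at 93.4 CPM in young members and 23.3 CPM in adult members, against 57.5 CPM in young others and 63.2 CPM in adult others. Gzmb, granzyme B of cytotoxic lymphocytes, had 130 UMIs in 5 young members and 4 UMIs in 3 adult members. One young cell held 125 of the 130, beside 71 UMIs of Nkg7, 12 of Cd3e, 11 of Trbc2 and 8 of Cd8a, all lymphocyte genes, and 4 of Csf1r.

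Genes lower in young members were led by genes that a few adult cells carried, and 4 of 11 alternative activation genes were among them. Ctsk had 1 UMI in young and 635 UMIs in 3 adult members, 491.5-fold (interval from 87.9) lower in young. Mmp9, a matrix protease, had 0 UMIs in young and 342 UMIs in 10 adult members, 304 of them in 1 cell, so it was at least 88.2-fold lower in young members, reading 0 as up to 3 UMIs over the young sum. Ccl17 had 2 UMIs in 1 young member and 294 UMIs in 9 adult members, 236 of them in 1 cell that held no C1qa UMI, 3 Csf1r UMIs and 5 of the 7 score genes. Acp5 was 8.89-fold (6.75 to 11.9) lower in young members and 1.55-fold lower in young others. The neutrophil genes S100a8 and S100a9 had 32 and 2 UMIs in young members and 173 and 53 UMIs in adult members, with 92 of the 173 and 24 of the 53 in 1 cell each.

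Ccl24, Mgl2 and Cdh1 were lower in young others too. Ccl24 was read in 3 of 87 young and 45 of 113 adult members, against 194 of 4286 young and 1598 of 3450 adult others, and was 81.3-fold (27.6 to 396) lower in young members and 30.5-fold lower in young others. Mgl2, a C-type lectin of alternatively activated macrophages, was at 7.68 CPM in young members and 58.9 CPM in adult members, against 2.20 CPM in young others and 55.8 CPM in adult others. Cdh1, E-cadherin, was at 22.4 CPM in young members and 78.7 CPM in adult members, against 7.47 CPM in young others and 46.4 CPM in adult others. Mrc1, the mannose receptor, was 2.41-fold (1.64 to 3.61) lower in young members and 4.20-fold lower in young others. Apoe, a lipid carrier of mature macrophages, was 2.03-fold lower in young members and 1.12-fold lower in young others, at 1357 CPM in young members and 2750 CPM in adult members, against 1477 CPM in young others and 1661 CPM in adult others. The age count moved to 77 higher among the top 100 cells by score and to 14 lower without members rich in other marker lists.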

How the data were processed

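Single-cell RNA of mCherry-sorted tumour cells was measured in 2 libraries, 1 for each age. The values are raw UMI counts per gene and barcode as deposited, made with Cell Ranger 3.0.2 against mm10, per the submitters' processing notes, and the kit was the 10x 3' v2 chemistry, per the labels' protocols. Which annotation, construct sequence and barcode filter the authors used is not stated in these sources. Of 31054 feature IDs 30934 matched GENCODE M21, which gave the mm10 positions.

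Cells were selected as described in the report and their counts summed into 4 sums, young and adult members and young and adult others. Ratios are log2(CPM + 5), and folds are plain ratios of CPM. A gene was compared when its mean over the sums was at least 20 CPM. It was called when members differed from others by 2-fold or more in the same direction in both libraries, or when the ages differed by 2-fold or more with an interval without 1. Exact Poisson and Clopper-Pearson intervals at 95% cover counting error only, and a count of 0 was read as up to 3 UMIs. The 95% interval of a ratio of member shares is approximate, from a normal distribution of the log ratio, and covers counting error only too. Cells do not replicate an age, and no p-value is given. Doublets were not removed, and no doublet caller was run. For shares, cells were also thinned to 5000 UMIs.

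The members and the 42 gene lists were chosen with earlier results of these data known. Genes named by rule are the 12 with the highest and the 12 with the lowest ratio in the weaker library, and the 10 with the largest age ratio each way. The rule left out the score genes, Csf1r, the mCherry construct and mitochondrial, ribosomal protein, haemoglobin and immunoglobulin genes. Cx3cr1, Fcrls, Acp5, the score genes and leading genes of each list were added. Other genes named were picked after their values were seen. Summing and ratios were tested on simulated data. There were 23 alternatives, 4 of them added after the data were seen. Python 3.11.15, numpy 2.4.6, scipy 1.17.1, pandas 2.3.3 and matplotlib 3.10.9 were used.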

Additional observations from a re-analysis of the deposited data

Results flagged for a closer look

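For 5 genes the fold of members over others lay on opposite sides of 1 in the libraries, with intervals that exclude 1 in both; the difference between the libraries was not tested. Ccl8, a monocyte chemokine, was 2.06-fold (1.82 to 2.31) in the young library and 0.0666-fold (0.038 to 0.108) in the adult library. Mt2, a metallothionein, was 1.63-fold (1.37 to 1.92) in the young library and 0.368-fold (0.27 to 0.491) in the adult library. Ccl17, a chemokine of dendritic cells and alternatively activated macrophages, was 0.124-fold (0.015 to 0.45) in the young library and 2.29-fold (2.02 to 2.58) in the adult library, where 1 cell held 236 of 294 UMIs. Acp5 was 0.753-fold (0.565 to 0.983) in the young library and 4.31-fold (3.95 to 4.7) in the adult library, where 3 cells rich in Ctsk held most of the UMIs. S100a8, a calprotectin subunit of neutrophils, was 0.285-fold (0.194 to 0.402) in the young library and 1.29-fold (1.1 to 1.51) in the adult library, where 1 cell held 92 of 173 UMIs.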

How the results depend on the processing

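No paired analysis was possible because each age is 1 library and the result comes from no test; for the same reason no replicate could be left out. The young over adult ratio of member shares lay between 0.59 and 0.752 in the alternatives that left the number per library free; taking the top 100 cells of each library fixes it at 0.815 by construction (interval 0.62 to 1.07) and says nothing of the share. The counts moved more: 124 genes higher and 57 lower in members, 46 higher and 23 lower in young members, and 10 lists at least 2-fold higher and 1 lower. Among the top 100 cells by score 87 genes were lower in members, 77 were higher in young members and 30.95% of young members had more S phase UMIs, against 45.98%. Among the top 400 the counts were 62 higher and 1 lower, with 0 lists lower. Thinning to 5000 UMIs gave 68 higher, 7 lower, 88 higher in young, 84 lower in young and 0 lists lower. Leaving out the top 5% of base cells by UMIs gave 50 higher, 5 lower, 6 lists higher and 0 lower. Genes lower in members were 15 with at least 4 Csf1r UMIs, 18 with no mCherry UMI, 16 with a score without Tyms and Pclaf and 14 with a score of these 2 alone, each with 0 lists lower. They were 35 with at most 5% mitochondrial UMIs and 30 with each cell weighted the same. A pseudocount of 20 CPM gave 74 higher, 30 lower, 25 higher in young, 15 lower in young and 2 lists higher. With no minimum level 281 were higher, 71 higher in young and 98 lower in young, and with at least 100 CPM 27 were higher, 37 lower, 17 higher in young and 8 lower in young. Without members rich in other marker lists, an alternative added after the data were seen, 14 were lower in young.

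Some log2 ratios changed sign. S100a8, young over adult members, was 0.54 among the top 100 cells, 1.31 with at least 1 Csf1r UMI and 0.26 without members rich in other marker lists. With at least 1 Csf1r UMI the age ratio was 2.75 for S100a9 and -0.32 for Gzmb. The age ratio of Ctsk was 0.26 without the top 5% of cells by UMIs and 0.18 without the rich members, where the adult ratio of members to others was -0.17 for Acp5 and -0.11 for the osteoclast-type list. Gm15056 in the young library was 0.24 among the top 400 cells and 0.20 without the top 5% of cells. Ccl24 in the young library was 2.56 after thinning, where some members were drawn from tied cells, and 1.94 with Tyms and Pclaf alone. Slpi in the adult library was 0.29 without the top 5% of cells and 0.21 with each cell weighted the same. Apart from the changes of construction that these alternatives make, the cause was not tested. Cx3cr1 was higher in members under every alternative, with log2 ratios of 2.003 to 4.13 in the young and 1.57 to 2.25 in the adult library, and so was Fcrls, with 0.52 to 2.45 and 1.88 to 3.21. Depth limits the shallow members, which can rest on 1 UMI of a score gene.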
